A study of Drosophila melanogaster with 35 samples.

Results

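The peaks described here lie in annotated copies of 18S rRNA, the RNA of the small ribosomal subunit, and come from iCLIP of the zinc-finger protein CLAMP in 2 Drosophila cell lines. A peak was taken where its midpoint lay, on the same strand, in an Ensembl gene whose symbol starts with 18SrRNA, on the rDNA scaffold or on the X chromosome. The rule found 246 of 3235 peaks, in 5 gene copies and 5 peak lists. The chromatin lists held 78 peaks in 18S of 1416 in all for S2 and 77 of 874 for Kc. The nucleoplasm lists held 32 of 391 for S2 and 56 of 546 for Kc, and the cytoplasm list of Kc held 3 of 8. No measured value entered the rule.

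S2 is an established male line and Kc an established female line, both of embryonic origin. Cells of both lines were crosslinked with ultraviolet light of 254 nm and separated into chromatin, nucleoplasm and cytoplasm, and RNA bound to CLAMP was recovered from each fraction with a rabbit antibody. The labels describe 4 CLAMP libraries for each line and fraction and, as controls, crosslinked cells taken through the procedure without antibody. Each line and fraction described here has 1 peak list, so there is no spread between replicates. The lists carry no read numbers, so the depth behind a peak is unknown. No peak list of the control libraries was used, and a peak is therefore not shown to be a contact of CLAMP with 18S rRNA. The S2 cytoplasm was not analysed here.

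As background, CLAMP is known for binding GA-rich DNA and for its part in dosage compensation of the male X chromosome. The 18S rRNA is cut from a long precursor that RNA polymerase I transcribes in the nucleolus. The precursor also holds the 5.8S, 2S and 28S rRNAs and the spacers between them, and the spacers are removed as the subunits mature. Small nucleolar RNAs guide chemical marks onto the nascent rRNA, with C/D box RNAs guiding methylation of the ribose and H/ACA box RNAs guiding conversion of uridine to pseudouridine. The small subunit is then exported to the cytoplasm, where it decodes messenger RNA. In Drosophila melanogaster the rRNA genes are repeated in clusters on the sex chromosomes, so copies share most of their sequence and a read can match several of them.

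All 5 copies carried peaks in each of the 4 nuclear lists. The copies 18SrRNA:CR41548 (rDNA 43484 to 45478), 18SrRNA:CR45838 (rDNA 55965 to 57959) and 18SrRNA:CR45841 (rDNA 67668 to 69662) lie on the plus strand of the rDNA scaffold, and each is 1995 nt long. The pseudogenes 18SrRNA-Psi:CR41602 (X 23211192 to 23213166, plus strand, 1975 nt) and 18SrRNA-Psi:CR45861 (X 23280998 to 23282931, minus strand, 1934 nt) lie on the X. Coordinates are 1-based on dm6. For scale, 3.61% of 18358 annotated genes held a peak midpoint in chromatin of S2 and 1.18% in that of Kc, while nucleoplasm had 0.354% for S2 and 0.73% for Kc. In Kc cytoplasm 3 of the 5 copies had a peak, beside 0.0436% of annotated genes.

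Copies differed little in total, with 51 peaks in CR41548, 42 in CR45838, 47 in CR45841, 54 in the pseudogene CR41602 and 52 in the pseudogene CR45861 over all lists. In S2 chromatin the 5 copies, in the same order, held 16, 15, 12, 19 and 16 peaks, and in Kc chromatin 19, 10, 12, 17 and 19. The Kc nucleoplasm peaks were spread evenly, with 11, 11, 10, 12 and 12. The S2 nucleoplasm list stood apart, with 13 of its 32 peaks in CR45841 and 4, 5, 5 and 5 in the other copies. Those 13 peaks covered 47.3% of CR45841, whereas S2 nucleoplasm peaks covered 11.1% of CR41548, 14.3% of CR45838, 14.9% of the pseudogene CR41602 and 11.7% of the pseudogene CR45861. The sources used here do not give how reads that match several copies were assigned, and the part of that step in these differences was not tested.

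**Figure D1:**
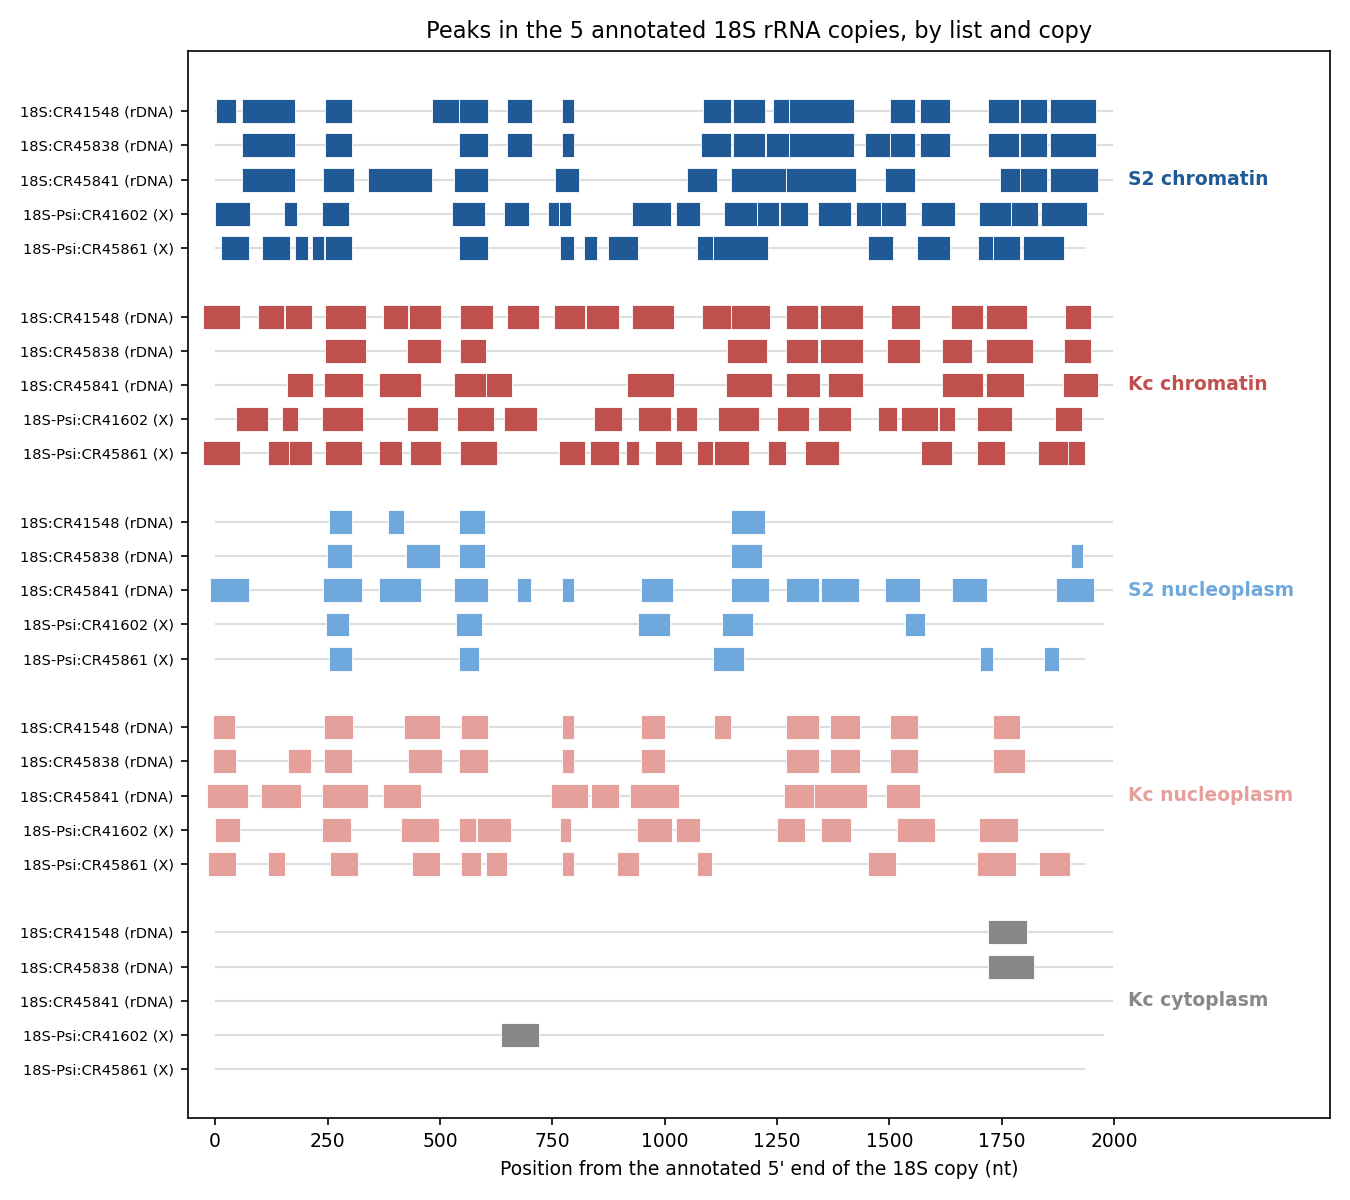
Each bar is 1 peak, drawn from its first to its last base by position from the annotated 5' end of the 18S copy (horizontal axis, nt), with a row for each copy within each list. Peaks recur at like positions in several copies, and in S2 nucleoplasm the copy CR45841 holds 13 of 32 peaks.

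Peaks in 18S were a smaller part of the S2 chromatin list than of the Kc chromatin list. They made up 5.51% of S2 chromatin peaks (Wilson 95% interval 4.44 to 6.82%) and 8.81% of Kc chromatin peaks (7.11 to 10.9%), an odds ratio of 0.604 (0.436 to 0.836; two-sided Fisher's exact test, p adjusted over 8 tests = 0.0214). The test takes peaks as independent, which peaks of copies that share sequence are not, so the p-value can be too small and the intervals too narrow. With 1 list for each line and fraction, the p-value compares the lists and not repeated experiments. The numbers of 18S peaks, 78 and 77, were nearly equal, and the lists differed in their other peaks. Set against peaks of the rDNA scaffold and the X rDNA block alone, 18S took 22.4% in S2 chromatin and 19.6% in Kc chromatin, an odds ratio of 1.19 (adjusted exact p = 0.632), a setting chosen after the data were seen. With narrow peaks under 30 nt left out the ratio was 0.720 (adjusted exact p = 0.465). Without the pseudogenes, whose peaks were then counted among the other peaks, it was 0.636 (adjusted exact p = 0.136). With distinct sites in place of peaks it was 0.576 (adjusted exact p = 0.206), and the call was lost in each of these settings.

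In nucleoplasm the 18S share was 8.18% in S2 (5.86 to 11.3%) and 10.3% in Kc (7.98 to 13.1%), and the difference did not pass the test (odds ratio 0.785, 0.499 to 1.23; adjusted exact p = 0.506). The odds ratio in chromatin was 0.769 times that in nucleoplasm (0.440 to 1.34), and this difference did not pass Zelen's exact test (p = 0.386). Within S2 cells the share in chromatin, 5.51%, and in nucleoplasm, 8.18%, differed by an odds ratio of 0.649 and missed the threshold (interval 0.424 to 0.992, adjusted exact p = 0.223). Within Kc cells the odds ratio of chromatin over nucleoplasm was 0.844 (0.588 to 1.21; adjusted exact p = 0.533). In Kc cytoplasm 3 of 8 peaks were in 18S, or 37.5%, with an interval of 13.7 to 69.4%.

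The rRNA most like 18S is 28S, the large-subunit RNA cut from the same precursor, and no difference between lists in the balance of both RNAs passed the test. Of the peaks in either RNA, 18S held 38.4% in S2 chromatin (32.0 to 45.3%; 78 of 203) and 33.6% in Kc chromatin (27.8 to 40.0%; 77 of 229), which gave a ratio of odds of 1.23 (interval 0.831 to 1.82, adjusted exact p = 0.506). In nucleoplasm it held 29.6% in S2 (32 of 108) and 33.5% in Kc (56 of 167), which gave 0.838 (interval 0.498 to 1.41, adjusted exact p = 0.585). Chromatin over nucleoplasm gave 1.47 in S2 (interval 0.895 to 2.42, adjusted exact p = 0.363) and 1.003 in Kc (interval 0.658 to 1.53, adjusted exact p = 1). Annotated 28S copies numbered 12, pseudogenes among them. Without the pseudogenes of both RNAs, chromatin over nucleoplasm in S2 gave 2.55, from 43 and 31 peaks against 22 and 41. It did not pass the test (adjusted exact p = 0.0785). The ratios then were 1.51 for S2 over Kc chromatin, 0.626 for S2 over Kc nucleoplasm and 1.05 for chromatin over nucleoplasm of Kc.

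**Figure D2:**
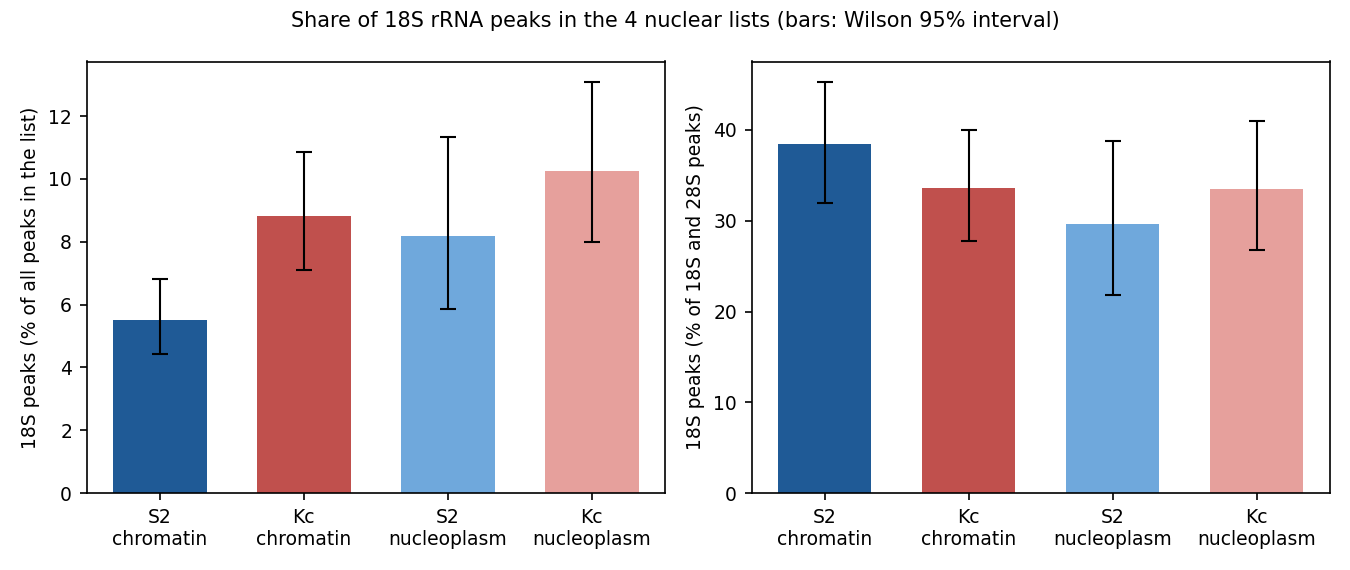
The bars give the 18S peaks of each nuclear list as a percentage of all its peaks (left) and of its 18S and 28S peaks (right), with Wilson 95% intervals. The left panel runs from 5.51% in S2 chromatin to 10.3% in Kc nucleoplasm, and in the right panel all 4 intervals overlap.

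Summed over the annotated precursor units, peaks stood more densely in 18S than in the spacers beside it. The 18S sequence starts at base 862 of each of the 3 annotated precursor units on the rDNA scaffold. In S2 chromatin those units held 7.18 plus-strand peaks per kb of 18S, 2.32 in the 5' external spacer, 0.932 in the first internal spacer and 4.64 in annotated 28S. Kc chromatin had 6.85 per kb in 18S, 2.71 in the 5' external spacer, 3.73 in the internal spacer and 6.73 in 28S. The first internal spacer, which lies between 18S and 5.8S, thus held 2 peaks of the chromatin list of S2 and 8 of that of Kc over the same 2146 nt. The units were not alike. In pre-rRNA:CR45846 Kc chromatin had 5.76 peaks per kb in the first internal spacer and 5.01 in 18S, and all 7 of its 5' external spacer peaks were in pre-rRNA:CR45845.

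The nucleoplasm lists had few spacer peaks. In S2 nucleoplasm the density was 3.68 per kb in 18S and 6.13 in 28S, with 3 peaks in the 5' external spacer and 0 in the internal spacer. In Kc nucleoplasm it was 5.35 per kb in 18S and 5.53 in 28S, with 0 peaks in the 5' external spacer and 1 in the internal spacer. Every peak with a base in an 18S copy also had its midpoint there, since counting any overlap changed no number. Just outside the copies lay 4 peaks, all in Kc chromatin. They ran from rDNA 43346 to 43391 and from X 23211108 to 23211151 before the 5' ends of CR41548 and CR41602, and from rDNA 45479 to 45530 and rDNA 58027 to 58068 after the 3' ends of CR41548 and CR45838. Just inside, a Kc chromatin peak from rDNA 43456 to 43537 crossed the 5' end of CR41548 at 43484, and an S2 chromatin peak from rDNA 43485 to 43528 began at the second base of that copy. Other peaks also crossed a 5' end. In Kc nucleoplasm they did so in CR41548 (from rDNA 43478), CR45838 (from rDNA 55959), CR45841 (from rDNA 67650) and the pseudogene CR45861 (to X 23282948). So did an S2 nucleoplasm peak in CR45841 (from rDNA 67655) and a Kc chromatin peak in the pseudogene CR45861 (to X 23282959).

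Widths of 18S peaks were similar between lists. The median width was 62 nt in S2 chromatin (25 to 156 nt), 71 nt in Kc chromatin (30 to 105 nt), 69 nt in S2 nucleoplasm (27 to 94 nt) and 63.5 nt in Kc nucleoplasm (25 to 118 nt). Peaks in 28S had medians of 75, 71, 51.5 and 59 nt in the same lists, and peaks in neither RNA 37, 52, 52 and 57 nt. By these medians, 18S peaks of S2 chromatin were wider than its peaks outside both RNAs and narrower than its 28S peaks.

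Peaks of different scaffold copies often overlapped in position, while the share with identical ends varied between lists. On the rDNA scaffold, where copies have 1 length and positions match without alignment, 26 of 43 S2 chromatin peaks had a peak with identical first and last positions in another copy. This was so for 6 of 41 peaks in Kc chromatin, 2 of 22 in S2 nucleoplasm and 10 of 32 in Kc nucleoplasm. With up to 5 nt of difference at each end the counts were 30, 15, 4 and 16. Peaks that overlapped a peak of another copy numbered 41 of 43, 37 of 41, 14 of 22 and 30 of 32. The parts of dense coverage and of reads that match several copies in these counts were not tested. The number of peaks is thus larger than the number of places in the molecule. Linking midpoints that lay within 20 nt of each other gave 35 sites over all lists, with 28 for S2 and 29 for Kc in chromatin, 17 for S2 and 21 for Kc in nucleoplasm, and 2 in the cytoplasm of Kc. Positions were counted from each copy's annotated 5' end. The X copies are shorter. From their midpoints to the nearest scaffold midpoint the median distance was 18 nt in CR41602 and 18.5 nt in CR45861. In the first part of the molecule it was 6 and 5 nt, and in the second part 20 and 36 nt. A site can therefore be split between scaffold and X copies.

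Taken over the 3 scaffold copies together, peaks covered 70.0% of the 1995 positions of 18S in S2 chromatin and 76.1% in Kc chromatin, and in nucleoplasm 49.4% for S2 and 55.4% for Kc. Positions covered in all 3 copies were 40.8% for S2 and 30.4% for Kc in chromatin, and 8.97% for S2 and 20.9% for Kc in nucleoplasm. S2 chromatin thus covered fewer positions than Kc chromatin in at least 1 copy, and more in all 3 copies at once. Taken copy by copy, S2 chromatin covered 54.9% of CR41548, 53.5% of CR45838 and 54.0% of CR45841. Kc chromatin covered 68.8%, 39.4% and 49.4% of them. Positions under a peak in at least 1 copy of each of the 4 nuclear lists made up 27.2% of the molecule, in 10 stretches. Positions with no peak in any scaffold copy of any list made up 5.91%, in 6 stretches, the longest of them the 31 nt from position 1965 to the 3' end at 1995.

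**Figure D3:**
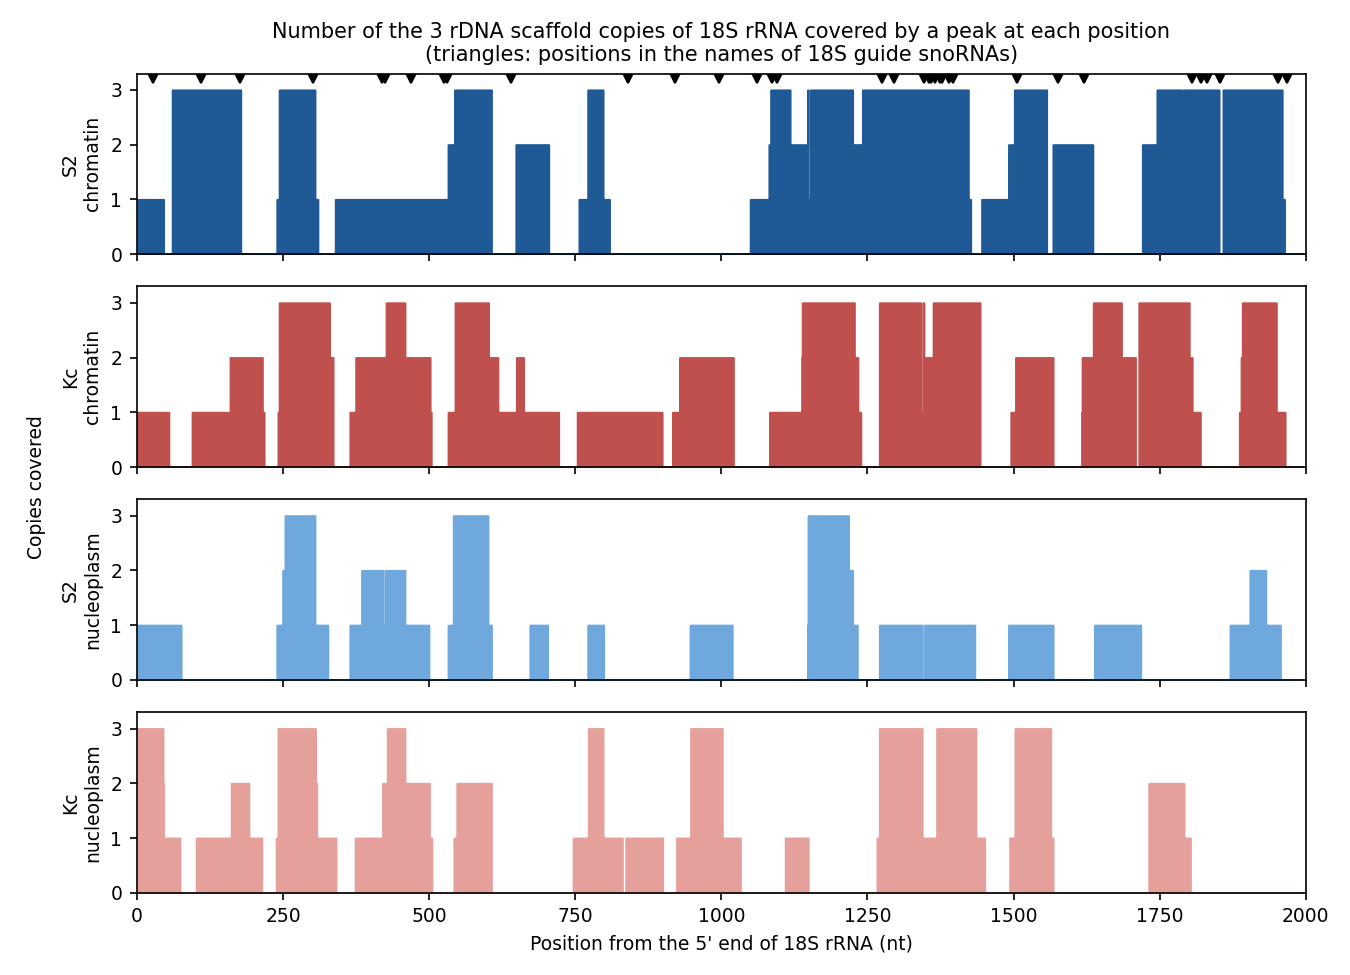
The height at each position of 18S (horizontal axis, nt from the 5' end) is the number of the 3 rDNA scaffold copies under a peak, with a panel for each nuclear list and triangles at positions named by 18S guide snoRNAs. The stretch from 254 to 304 reaches 3 copies in all 4 lists, and S2 chromatin has no coverage from 809 to 1049.

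The most constant place was near position 280. All 5 copies had a peak with its midpoint between 268 and 289 in S2 chromatin, Kc chromatin, S2 nucleoplasm and Kc nucleoplasm, 20 peaks in all. Positions 254 to 304, a run of 51 nt, were the only ones covered in all 3 scaffold copies in all 4 lists. In CR41548 the peaks ran from 244 to 304 in S2 chromatin, 244 to 335 in Kc chromatin, 254 to 304 in S2 nucleoplasm and 242 to 307 in Kc nucleoplasm. The peaks of both chromatin lists thus began at the same base, rDNA 43727, and differed in where they ended.

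A second place shared by nearly all copies had midpoints between 561 and 586, with 5 peaks each in S2 chromatin, Kc chromatin and S2 nucleoplasm and 4 in Kc nucleoplasm. In CR45838 these ran from 544 to 606 in S2 chromatin, 545 to 601 in Kc chromatin, 542 to 600 in S2 nucleoplasm and 543 to 606 in Kc nucleoplasm. Only CR45841 in Kc nucleoplasm lacked it. Midpoints between 778 and 795 were found in 5 copies in S2 chromatin and 5 in Kc nucleoplasm, but in 2 in Kc chromatin and 1 in S2 nucleoplasm. Most of these peaks were short, running from 772 to 797 in CR41548 and CR45838 in S2 chromatin and from 773 to 797 in the same copies in Kc nucleoplasm, at 26 and 25 nt wide. In CR45841 the peak was wider, with 52 nt in S2 chromatin and 84 nt in Kc nucleoplasm, and both Kc chromatin peaks were also wider, with 70 nt in CR41548 and 58 nt in the pseudogene CR45861.

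Linked midpoints from 1115 to 1209 formed a wider group, with 7 peaks for S2 and 6 for Kc in chromatin, and 5 for S2 and 1 for Kc in nucleoplasm. Positions 1153 to 1224 were covered in all 3 scaffold copies in both chromatin lists. Those from 1149 to 1232 were covered in S2 nucleoplasm and in no scaffold copy in Kc nucleoplasm. Midpoints from 1453 to 1535 gave 7, 3, 1 and 4 peaks in S2 chromatin, Kc chromatin, S2 nucleoplasm and Kc nucleoplasm.

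Some places were found in most copies of Kc lists and in 1 copy of each S2 list. Midpoints between 1282 and 1308 occurred, in chromatin and likewise in nucleoplasm, in 1 copy for S2 and 4 copies for Kc. Those between 1378 and 1402 gave the same counts. In S2 chromatin the region was nonetheless covered, by longer peaks with midpoints between 1348 and 1350 in 3 copies, where Kc chromatin had 1 and the nucleoplasm lists 0. The difference there was in where peaks were divided as well as in what they covered.

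At the 5' end, midpoints between 13 and 45 were found in 3 copies for S2 and 2 for Kc in chromatin, and in 1 for S2 and 5 for Kc in nucleoplasm. Midpoints between 391 and 416 occurred in 1, 3, 2 and 1 copies in the same order, and those between 968 and 982 in 1, 3, 2 and 4. At the last of these the S2 chromatin peak was in the pseudogene CR41602, and no scaffold copy was covered in that list between 809 and 1049. S2 nucleoplasm covered 947 to 1018 in CR45841.

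Towards the 3' end, the 1 site present in all 5 lists had midpoints between 1714 and 1771, with 6 peaks for S2 and 5 for Kc in chromatin, 1 for S2 and 4 for Kc in nucleoplasm, and 2 in the cytoplasm of Kc. The S2 chromatin count includes a peak from 1731 to 1790 in the shorter pseudogene CR45861, placed by counting from the 5' end. The cytoplasm peaks were at rDNA 45203 to 45288 in CR41548 and rDNA 57684 to 57786 in CR45838. The third cytoplasm peak in 18S lay in the pseudogene CR41602 at X 23211828 to 23211912. Its site, with midpoints between 670 and 687, had 3 peaks for S2 and 2 for Kc in chromatin, and 1 for S2 and 0 for Kc in nucleoplasm. All 3 cytoplasm peaks were overlapped by a Kc chromatin peak and by a Kc nucleoplasm peak. Outside 18S, 80% and 60% of the 5 other cytoplasm peaks were.

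For each pair of lists, up to 2 sites with most peaks in 1 list and no midpoint in the other are given. A peak of the other list can still reach into such a site from beside it. In S2 chromatin, 4 copies had a peak of 60 nt with its midpoint between 1801 and 1821, from 1792 to 1851 in each of the scaffold copies, and Kc chromatin had 0 midpoints there. All 4 of these peaks were nonetheless overlapped at their 5' part by a Kc chromatin peak of the same copy. The pseudogene CR45861 is shorter and had a 60 nt S2 chromatin peak from 1731 to 1790, which was linked to another site. The count of 4 copies thus depends on counting positions from the 5' end. The other site, with its midpoint at 229, rested on a single S2 chromatin peak in the pseudogene CR45861. In the other direction, midpoints between 456 and 469 were found in 0 copies in S2 chromatin and 4 in Kc chromatin, and those between 861 and 873 in 0 and 3. An S2 chromatin peak overlapped 1 of the 4 and 1 of the 3 in the same copy.

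Between the nucleoplasm lists, S2 had 2 peaks with midpoints between 1889 and 1925 and 1 between 670 and 687, where Kc had 0. S2 nucleoplasm had 0 peaks with midpoints between 119 and 146 and 0 between 620 and 631, where Kc nucleoplasm had 2 at each and 1 of those near 620 was overlapped by an S2 nucleoplasm peak. Within S2 cells, midpoints between 119 and 146 and between 1599 and 1628 gave 4 chromatin peaks each and 0 in nucleoplasm, and a nucleoplasm peak overlapped 1 of the 4 at each. In the other direction S2 chromatin had 0 peaks between 456 and 469 and 0 between 1558 and 1567, where S2 nucleoplasm had 1 at each, and the second of these was overlapped by S2 chromatin peaks. Within Kc cells, midpoints between 1889 and 1925 gave 5 chromatin peaks and those between 1651 and 1678 gave 3, with 0 in nucleoplasm, and a nucleoplasm peak overlapped 1 of the 5. All 21 sites of Kc nucleoplasm were also sites of Kc chromatin, which held 29 of the 35 sites.

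Sites were linked from midpoints pooled over all lists. Of the 35 sites, S2 held 28 and Kc 29 in chromatin, and S2 held 17 and Kc 21 in nucleoplasm. How much sharing these numbers would give by themselves was not tested. As a share of each list, 22 sites shared by the chromatin lists were 78.6% of the S2 sites and 75.9% of the Kc sites. In nucleoplasm 14 sites were shared, or 82.4% of those in S2 and 66.7% of those in Kc. In S2 cells the 14 sites shared between fractions made up 50% of those in chromatin and 82.4% of those in nucleoplasm, and in Kc cells the 21 shared sites made up 72.4% in chromatin and 100% in nucleoplasm. Joined over all 5 copies, positions covered in both chromatin lists were 80.6% of the molecule, and in the scaffold copies alone 54.1%. With 5 copies the S2 list alone covered 87.7% and the Kc list alone 90.2%, and with the scaffold copies alone 70.0% and 76.1%. Most of the molecule thus lay under peaks of each. The X copies were not aligned to the scaffold copies, so X peaks placed out of register can raise all values given for 5 copies. By how much was not tested. In nucleoplasm the S2 list alone covered 54.3% and the Kc list 72.8%. In the other pairs the shared positions with 5 copies were 42.0% for S2 and Kc nucleoplasm, 50.4% for chromatin and nucleoplasm of S2, and 70.1% for those of Kc.

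Overlap was also counted within the same copy, which needs no matching of positions between copies. Of the S2 chromatin peaks in 18S, 67 of 78 (85.9%) were overlapped by at least 1 nt by a Kc chromatin peak, beside 32.1% of S2 chromatin peaks outside 18S. Of the Kc chromatin peaks in 18S, 63 of 77 (81.8%) were overlapped by an S2 chromatin peak, beside 55% of those outside 18S. Peaks in 28S gave 86.4% and 74.3%, so high overlap was shared by both RNAs. Chromatin peaks covered 53.6% of the 5 copies in S2 and 54.5% in Kc, and the part of this dense coverage in the overlap was not tested.

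In nucleoplasm the 18S overlap was near that of the other peaks. Kc nucleoplasm peaks overlapped 21 of 32 S2 nucleoplasm peaks in 18S (65.6%, beside 60.7% outside 18S), and S2 nucleoplasm peaks overlapped 22 of 56 in Kc (39.3%, beside 44.5%). Between fractions, 27 of 78 S2 chromatin peaks were overlapped by S2 nucleoplasm (34.6%, beside 17.9%) and 27 of 32 S2 nucleoplasm peaks by S2 chromatin (84.4%, beside 66.9%). In Kc cells the counts were 49 of 77 for chromatin (63.6%, beside 44.2%) and 46 of 56 for nucleoplasm (82.1%, beside 70.6%). Between fractions, peaks in 28S gave 41.6% for chromatin and 71.1% for nucleoplasm in S2, and 66.4% and 90.1% in Kc. The higher overlap between fractions was thus not particular to 18S.

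**Figure D4:**
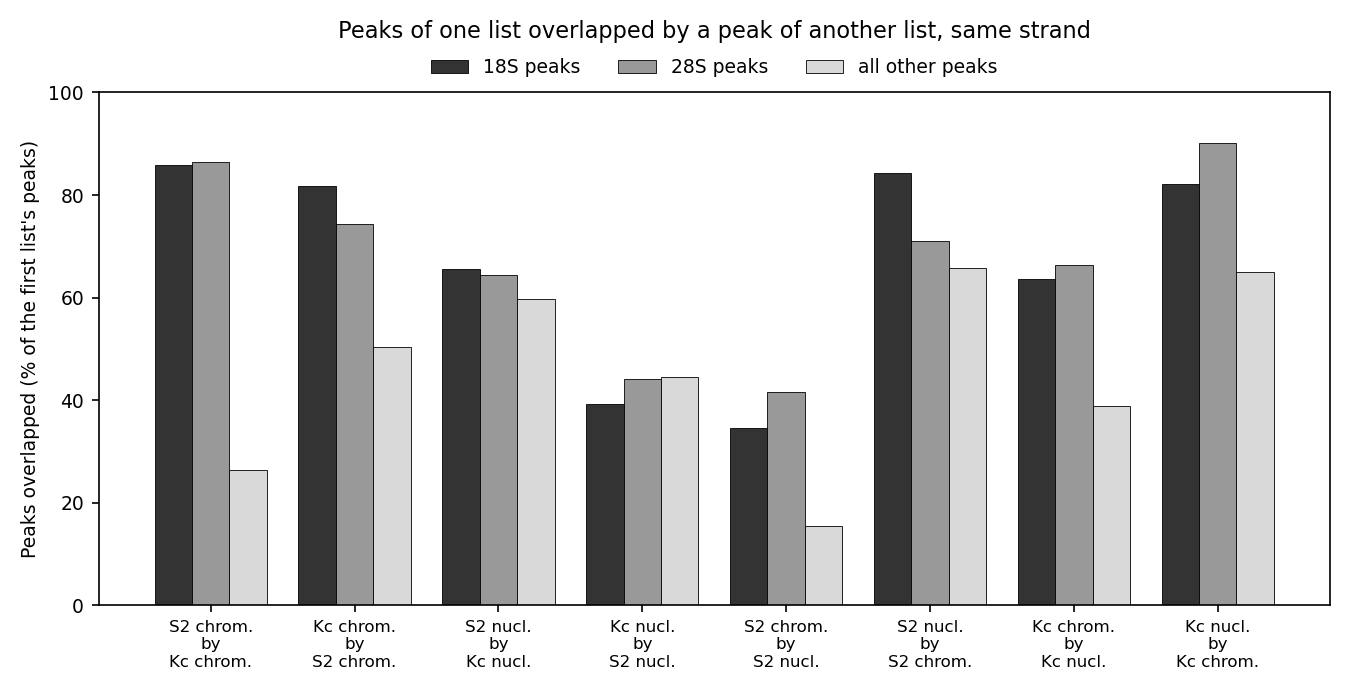
Each group of bars gives the percentage of the first list's peaks overlapped by at least 1 nt by a peak of the second list on the same strand, for 18S peaks, 28S peaks and all other peaks. For S2 chromatin by Kc chromatin the 18S bar is at 85.9% and the bar of other peaks at 26.5%, while in nucleoplasm the 3 bars lie close together.

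Ends of overlapping peaks seldom fell on the same base. Of 78 S2 chromatin peaks, 7 had the same 5' end and 5 the same 3' end as a Kc chromatin peak in the same copy, and 1 had both. Of 32 S2 nucleoplasm peaks, 0 shared a 5' end and 2 a 3' end with Kc nucleoplasm. Of 77 Kc chromatin peaks, 7 shared a 5' end and 3 a 3' end with Kc nucleoplasm, and of 78 S2 chromatin peaks 6 and 5 did so with S2 nucleoplasm. In the same order of pairs, 67, 21, 49 and 27 peaks were overlapped at all. Within 5 nt, 5' ends matched for 22, 8, 22 and 13 peaks and 3' ends for 16, 8, 16 and 8.

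Coverage was not even along the molecule. Averaged over the 3 scaffold copies, S2 chromatin peaks covered 49.8% of the first of 4 equal stretches of 18S, 30.6% of the second, 70.7% of the third and 65.5% of the last. In Kc chromatin these were 52.8%, 42.3%, 58.8% and 56.4%. In S2 nucleoplasm they were 31.6%, 20.1%, 27.7% and 17.6%, and in Kc nucleoplasm 51.5%, 33.6%, 36.5% and 21.6%. In all 4 lists the second stretch was covered less than the first. In both chromatin lists the last stretch was covered more than the first, and in both nucleoplasm lists less. Counted as peaks over all 5 copies, the first and last stretches held 16 and 23 in S2 chromatin, but 21 and 19 in Kc chromatin, so the chromatin pattern of Kc depends on the measure. With 1 list for a line and fraction this was not tested.

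Single copies had long stretches without a peak. In S2 chromatin the longest was 287 nt in CR41548, from 798 to 1084, and CR45838 had 284 nt from 798 to 1081. Kc chromatin had peaks there in CR41548, where its longest gap was 86 nt, but a gap of 537 nt in CR45838, from 602 to 1138. In S2 nucleoplasm the last 771 nt of CR41548, from 1225 on, carried no peak.

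Positions named in guide snoRNA genes were covered more often than all positions of 18S in S2 chromatin and about as often in the other nuclear lists, with no test made. Names of annotated snoRNAs give 35 positions in 18S, 17 for ribose methylation and 18 for pseudouridine, and they were taken at face value, with no sequence to check the numbering. In S2 chromatin 29 of 35 were under a peak in at least 1 scaffold copy (82.9%, beside 70.0% of all positions), and in Kc chromatin 27 (77.1%, beside 76.1%). In S2 nucleoplasm 17 were (48.6%, beside 49.4%), and in Kc nucleoplasm 20 (57.1%, beside 55.4%). For methylation alone the S2 chromatin count was 16 of 17, and the Kc chromatin count 13 of 17. For pseudouridine these were 13 of 18 (72.2%) in S2 chromatin and 14 of 18 (77.8%) in Kc chromatin. Counted by at least 1 scaffold copy, the higher coverage in S2 chromatin thus lay in the methylation positions. This depends on the measure, since S2 chromatin covered methylation positions 28, 419, 425, 469 and 1061 in 1 scaffold copy only. It did so too for pseudouridine positions 525 and 531. Position 301, for which snoRNA:Psi18S-301 is named, was the only one covered in all 3 scaffold copies in all 4 lists. From 1347 to 1397, where 8 of the 35 positions lie, all 8 were covered in all 3 scaffold copies in S2 chromatin and in 2 or 3 in Kc chromatin.

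Peaks also lay on the strand opposite to 18S, and all 16 of them were in CR45838. In chromatin there were 9 for S2 and 6 for Kc, in nucleoplasm 1 for S2 and 0 for Kc, and in the cytoplasm of Kc 0. On the sense strand that copy held 15, 10, 5, 11 and 1 peaks in the same order. The antisense peaks were 19 to 59 nt wide, with a median of 32 nt, and 13 of the 16 overlapped a sense peak of the same list. Sense peaks covered 53.5% of that copy in S2 chromatin, 39.4% in Kc chromatin and 14.3% in S2 nucleoplasm. The part of this coverage in the overlap was not tested. The copies CR41548 and CR45841, of the same length, had 0 antisense peaks.

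Of the 16 antisense peaks, 13 overlapped an antisense peak of any other list, with both peaks of an overlap counted. For scale, Kc chromatin peaks overlapped 32.1% of S2 chromatin peaks outside 18S, and S2 chromatin peaks overlapped 55% of those of Kc chromatin. S2 chromatin had an antisense peak at rDNA 56248 to 56278 and Kc chromatin had one at rDNA 56244 to 56279. They lay opposite positions 284 to 314 and 280 to 315 of 18S, overlapping the most constant sense place. The single S2 nucleoplasm peak, at rDNA 57125 to 57163, was overlapped by S2 chromatin peaks at rDNA 57108 to 57139 and 57141 to 57172. Opposite 28S copies there were 9 antisense peaks for S2 and 5 for Kc in chromatin, and 1 for S2 and 2 for Kc in nucleoplasm. Whether the library preparation and the mapping kept the strand for these reads was not tested.

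**Figure D5:**
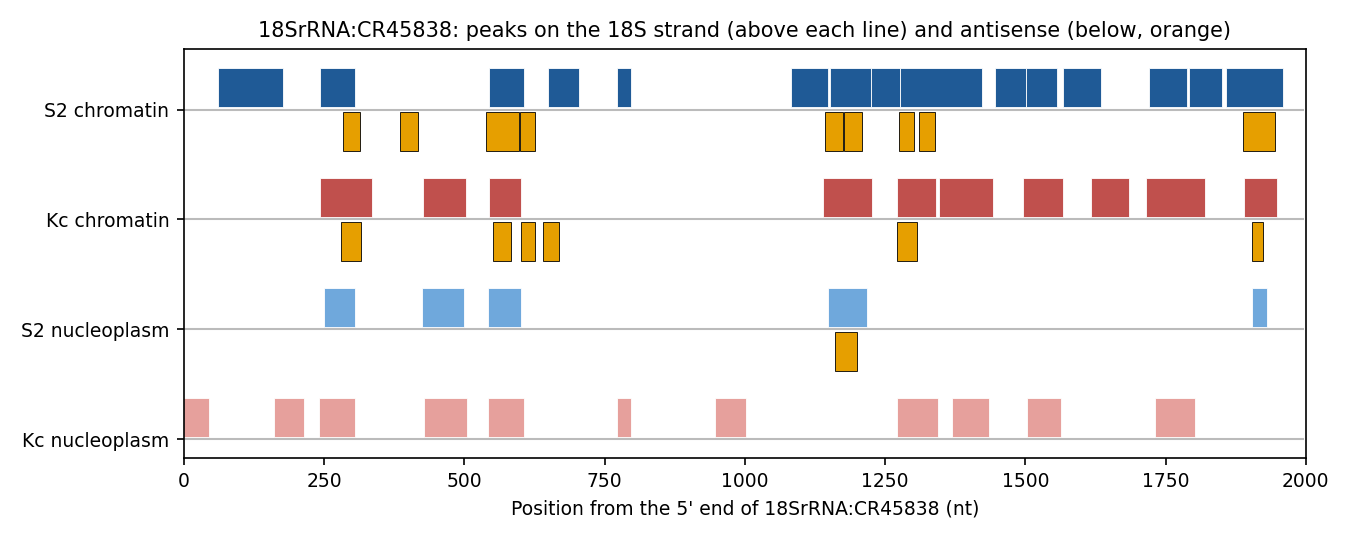
Peaks of each list in CR45838 are drawn along 18S (horizontal axis, nt from the annotated 5' end), on the sense strand and on the antisense strand. S2 chromatin has 9 antisense peaks, Kc chromatin 6 and S2 nucleoplasm 1, most of them opposite a sense peak.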

How the data were processed

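The labels describe 35 iCLIP libraries, 24 with CLAMP antibody and 11 without. Per the labels' protocols, crosslinking used 254 nm light, library primers carried barcodes of 4 nt, amplification took 31 PCR cycles and reads were analysed with the CLIP-Explorer workflow on Galaxy. The submitters' processing notes name FastQC, UMI-tools, cutadapt 3.5, STAR 2.5.2b-2 and dm6. The program that called peaks and its cutoff are named in none of the sources used here. From the authors come the deposited lists, 1 for each line and fraction used here, with start and end positions and a score, and that deposited score is 0 in all 3235 peaks. In the labels a list is named by all 4 CLAMP libraries of its line and fraction (3 of 4 for nucleoplasm of Kc), and also by control libraries. These are 1 of 2 for both S2 lists and for nucleoplasm of Kc, the single one for chromatin of Kc and 2 of 2 for its cytoplasm. The lists do not show how control reads were used.

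Peaks were placed by midpoint and strand in genes of Ensembl release 115. Positions were counted from the annotated 5' end of each copy, because aligning copies needs a genome sequence, which was not used here. Midpoints within 20 nt were linked into sites, and overlap meant at least 1 nt on the same strand. Lists were compared by Fisher's exact test, two-sided, adjusted by Benjamini-Hochberg over 8 tests with a threshold of 0.05, and 2 odds ratios with Zelen's exact test. Odds ratios have Woolf 95% intervals after adding a continuity correction, and shares have Wilson 95% intervals. The intervals cover counting error only. Since copies share sequence, their peaks are not independent, so p-values can be too small and intervals too narrow. With 1 list for each line and fraction, the p-values compare lists, not repeated experiments. Sites named are the first 12 by number of lists, then number of peaks, then position, those of Kc cytoplasm and, for each pair of lists, up to 2 sites with most peaks in 1 list and 0 in the other. All 5 copies are named. The members and lists were chosen with earlier results of these data known. Python 3.11.15, numpy 2.4.6, scipy 1.17.1 and matplotlib 3.10.9 were used, and placing and linking were tested on simulated peaks. Alternatives were the rule for counting a peak, its width, merging, the copies, the site distance and, chosen after seeing the data, positions from the 3' end and a count against rDNA peaks alone.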

Additional observations from a re-analysis of the deposited data

Results flagged for a closer look

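Peaks antisense to 18S were not part of the comparisons between lists. In chromatin there were 9 for S2 and 6 for Kc, and all lay in CR45838. They are listed here because they lie outside the main measurement. No control peak list was used, so the level in samples without antibody is unknown and the counts were set against no background.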

How the results depend on the processing

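The lower 18S share in S2 than in Kc chromatin (odds ratio 0.604, adjusted exact p = 0.0214) passed the threshold with any overlap, with either strand and with touching peaks merged. It did not with peaks of at least 30 nt (0.720), without pseudogenes (0.636) or with distinct sites (0.576), and against rDNA peaks alone it turned to 1.19. In the setting without pseudogenes, their peaks stayed in the number of all peaks. Counting scaffold copies only (0.636) keeps the same 18S peaks as leaving out pseudogenes and is not a separate check. Adjusted exact p over these alternatives ran from 0.00496 to 0.632. The other odds ratios that changed side, without passing the test in either setting, were S2 over Kc nucleoplasm with distinct sites (1.11), S2 chromatin over nucleoplasm against rDNA peaks alone (1.31) and Kc chromatin over nucleoplasm among 18S and 28S peaks after merging (0.966). Among 18S and 28S peaks, leaving out pseudogenes moved S2 chromatin over nucleoplasm from 1.47 to 2.55, without passing the test (adjusted exact p = 0.0785). The causes of these changes were not tested.

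Linking midpoints within 50 nt left 4 sites in each nuclear list, since chains of peaks then join, and without pseudogenes Kc cytoplasm had 1 site. Positions covered in both lists, without pseudogenes, were 54.1% for S2 and Kc chromatin, 34.2% for S2 and Kc nucleoplasm, 39.2% for the fractions of S2 and 52.1% for those of Kc. Counted from the 3' end they were 83.5%, 48.6%, 56.3% and 76.2%. The planned projection by alignment was not run, so counting from the 5' end is the reported value. No paired analysis was possible because each line and fraction has 1 list with no values per replicate, and for the same reason no replicate could be left out. Without read numbers, depth sets an unknown limit on which peaks each list could hold.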

Other observations

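Of the 67 annotated guide snoRNA genes for 18S, 8 had a peak in S2 chromatin (11.9%, beside 3.61% of annotated genes). In Kc chromatin 9 did (13.4%, beside 1.18%). In nucleoplasm 0 did for S2 (beside 0.354%) and 1 for Kc (1.49%, beside 0.73%). No test was made. Of the 35 positions named in 18S, 8 had a guide gene with a peak for S2 and 8 for Kc in chromatin, and 0 for S2 and 1 for Kc in nucleoplasm. Of those positions, 7 in S2 chromatin, 5 in Kc chromatin and 1 in Kc nucleoplasm lay under an 18S peak in at least 1 scaffold copy. Of all 35 positions, 29 (82.9%) in S2 chromatin, 27 (77.1%) in Kc chromatin and 20 (57.1%) in Kc nucleoplasm did.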
